A study of Mus musculus with 12 samples.

Results

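The genes described here are 5 keratins, Krt7, Krt8, Krt18, Krt19 and Krt20, and 3 small proline-rich protein genes, Sprr1a, Sprr2f and Sprr2g. They are 8 of the 55487 gene identifiers in the count table and were selected on their measured levels in these same libraries. Their values in the 4 groups are therefore given as a description with no test, and p-values are given only for other genes. The lists of other genes were also drawn up with earlier results of these data known, so that their p-values describe these libraries and are not independent evidence.

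The study asked how loss of ALR, the sulfhydryl oxidase encoded by Gfer, alters the response of the kidney to ischemia and reperfusion (I/R). RNA-seq of mouse kidney cortex, as the labels name the tissue, was carried out on 12 libraries in 4 groups of 3. Ctrl mice carried the floxed ALR gene without Cre and are labelled WT. PT-KO mice carried the floxed gene with Ggt1-Cre, a transgene that deletes it in proximal tubule cells, and are labelled ALR knockdown. Both of these groups had a sham operation. Ctrl+I/R and PT-KO+I/R mice, of the same genotypes, had 22 min of bilateral renal ischemia and 24 h of reperfusion. All were young adult mice on a mixed C57BL/6 background. The labels number the libraries within a group but do not say that each came from a different animal, so that p-values measure the spread between these libraries.

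Keratins are the intermediate filament proteins of epithelial cells, and each filament pairs a type I chain with a type II chain. Krt7 and Krt8 are type II chains, and Krt18, Krt19 and Krt20 are type I chains. Krt8 and Krt18 are the usual pair of simple epithelia such as kidney tubules, Krt7 and Krt19 are known from ducts, and Krt20 is known from the surface cells of the gut and the urinary tract. Small proline-rich proteins are substrates of transglutaminases, which cross-link them into the cornified envelope of stratified epithelia. They are also known to be induced in stressed simple epithelia.

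After I/R, all 8 genes were above every sham library of the same genotype, in both genotypes. Of all genes tested, 21.4% were so placed in control and 35.9% in knockout kidneys. Krt8, Krt19 and Krt20 were higher again in injured knockout kidneys than in injured control kidneys (3.17, 2.29 and 32.4-fold, 3 libraries a group), whereas Krt7, Krt18 and the 3 Sprr genes overlapped between the injured groups. Of all genes tested, 29.5% were higher in every PT-KO+I/R than in every Ctrl+I/R library. As the 8 genes were selected on their levels, nothing is read from these counts. In sham kidneys the log2 differences between genotypes were from −0.24 to 0.27 for the 5 genes that could be fitted, and Krt20, Sprr2f and Sprr2g were almost absent.

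The libraries held 12165089 to 23123693 counts assigned to genes. Levels are given as CPM (counts scaled to a common library total), with library sizes scaled by the trimmed mean of M values (TMM). The summed level of 10 proximal tubule markers was 19110 to 27050 CPM in the 6 sham libraries, and none of these markers was at 0 in any group. Gfer was at 11.3 to 14.4 CPM in the Ctrl libraries and at 9.96 to 17.1 CPM in the PT-KO libraries, a log2 difference of 0.13 ± 0.20 (SE, edgeR adjusted p = 0.761). It was at 15.3 to 19.98 CPM in Ctrl+I/R, below each of the PT-KO+I/R libraries at 21.6 to 22.8 CPM, a log2 difference of 0.32 ± 0.13 (adjusted p = 0.0723), so that its mean was not lower in either knockout group. That count sums reads of the whole gene, including parts outside the deletion and cells without Cre, and so does not check the genotype labels. The paper reported lower ALR expression in the kidneys of PT-KO than of control mice, which the Gfer counts do not show. The reason for this was not tested. Ctrl libraries 1 and 2 carried 22402 and 19755 counts of Xist, an RNA of female cells, against at most 11 in each other library. In comparisons with Ctrl, I/R or genotype is therefore partly mixed with sex, whereas PT-KO, Ctrl+I/R and PT-KO+I/R do not differ in this respect. Ctrl library 3 is a data column whose number matches no sample title of that group.

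PT-KO library 2, and to a lesser degree PT-KO library 1, stood apart in genes of stratified squamous epithelium. Krt4, Krt6a, Krt6b, Krt13, Krt16, Sprr1b and Sprr3 together gave 943 counts in PT-KO library 2 and 81 in PT-KO library 1, against 0 to 41 in the other 10. The part of these libraries in the values below was not tested. Fits without each of them were run.

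The 8 genes lie in 3 chromosomal clusters of the mouse genome (GRCm38, GENCODE M21). Krt7 (chr15:101411043-101430313), Krt8 (chr15:101996698-102004482) and Krt18 (chr15:102028180-102032027) share the keratin cluster of chromosome 15. Krt8 and Krt18, on opposite strands and transcribed away from each other, are 23697 bases apart. Krt20 (chr11:99428403-99438150) and Krt19 (chr11:100140810-100148665) lie in the type I cluster of chromosome 11. Sprr2f (chr3:92365187-92366442), Sprr2g (chr3:92373915-92375229) and Sprr1a (chr3:92483952-92485895) lie in the Sprr cluster of chromosome 3.

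Proline codons made up 31.7% of the 145 codons of Sprr1a, 39% of the 77 of Sprr2f and 37.7% of the 77 of Sprr2g, stop codon included. In the 5 keratins they were 0.926% to 1.75% of the codons. Sprr2f and Sprr2g are neighbours with 7472 bases between them, and their annotated coding sequences of 231 bases were identical at 205 positions (88.7%). The pair is shown because the reads of such close copies could be shared between them, and capitals mark the 26 positions at which they differ, given 5′ to 3′ on the plus strand (chr3:92365896-92366126 for Sprr2f and chr3:92374640-92374871 for Sprr2g, GRCm38):

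Sprr2f coding sequence: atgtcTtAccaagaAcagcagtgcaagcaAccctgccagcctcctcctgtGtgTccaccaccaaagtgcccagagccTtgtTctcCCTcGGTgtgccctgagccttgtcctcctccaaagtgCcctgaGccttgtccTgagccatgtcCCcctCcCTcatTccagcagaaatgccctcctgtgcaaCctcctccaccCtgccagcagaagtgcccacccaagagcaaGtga

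Sprr2g coding sequence: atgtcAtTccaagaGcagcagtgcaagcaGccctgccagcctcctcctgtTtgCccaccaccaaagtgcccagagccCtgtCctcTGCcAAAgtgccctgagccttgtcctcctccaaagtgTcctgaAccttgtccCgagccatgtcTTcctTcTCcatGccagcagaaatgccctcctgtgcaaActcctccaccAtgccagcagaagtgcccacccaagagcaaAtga

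The differences were spread along the sequence. Of the windows of 50 bases in the Sprr2f transcript model, 4 of 560 occurred in a transcript of another gene, Sprr2e, and none of the 601 windows of Sprr2g did. With windows of 100 bases, neither gene shared any. Sprr2g is annotated as a polymorphic pseudogene, and its coding model of 231 bases is spread over 232 bases of genome. Among the keratins, Krt8 shared 17.1% of its 100-base windows with other annotated transcripts, nearly all with the pseudogene Krt8-ps. Krt8-ps itself held 0.0705% to 0.551% of the count of Krt8. The lincRNA Gm36026, which shares a few windows with Krt8, had at most 44 counts in any library. No 100-base window of Krt7, Krt18, Krt19, Krt20 or Sprr1a was shared.

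The promoters of Sprr1a, Sprr2f and Krt20 are printed because these genes were below 3 CPM in every sham library and all higher after I/R. RefSeq promoters (GRCm38.p6) were found for 6 of the 8 genes, Krt19 and Sprr2g being the exceptions. Windows of 300 bases, to 50 bases past the start, were searched on both strands for the AP-1 element TGANTCA, the CRE-like element TGACNTCA and the TATA box TATAAA, whose matches do not overlap each other in the promoters printed. The 250 bases before the start are given 5′ to 3′ on the strand of the gene, with matches in capitals, for Sprr1a (chr3:92485882-92486131, minus strand), Sprr2f (chr3:92364937-92365186, plus strand) and Krt20 (chr11:99438154-99438403, minus strand):

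Sprr1a promoter: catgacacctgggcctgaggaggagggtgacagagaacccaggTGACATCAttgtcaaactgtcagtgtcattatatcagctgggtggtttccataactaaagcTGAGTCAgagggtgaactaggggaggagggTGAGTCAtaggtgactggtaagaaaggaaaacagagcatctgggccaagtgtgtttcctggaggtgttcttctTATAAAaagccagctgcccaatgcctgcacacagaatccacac

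Sprr2f promoter: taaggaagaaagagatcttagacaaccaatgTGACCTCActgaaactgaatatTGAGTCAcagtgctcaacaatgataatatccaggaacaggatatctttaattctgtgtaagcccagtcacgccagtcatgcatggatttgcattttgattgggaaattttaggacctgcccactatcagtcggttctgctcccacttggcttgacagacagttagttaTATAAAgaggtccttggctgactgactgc

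Krt20 promoter: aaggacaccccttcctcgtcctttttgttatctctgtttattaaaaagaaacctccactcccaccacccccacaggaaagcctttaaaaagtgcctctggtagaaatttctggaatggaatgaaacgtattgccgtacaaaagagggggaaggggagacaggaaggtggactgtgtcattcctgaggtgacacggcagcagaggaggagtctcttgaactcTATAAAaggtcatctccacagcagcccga

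Sprr1a held 2 AP-1 elements, the first bases of which were 146 and 116 bases before the start, and Sprr2f held 1, at 197 bases before the start. Sprr1a and Sprr2f each also held 1 CRE-like element farther upstream, and Krt7 held 1 at 13 bases past the start. None of the 4 keratin promoters held TGANTCA. Of all 27025 promoters, 7.93% held an AP-1 element and 8.97% a CRE-like element. The letters of a TATA box were present in 4 of the 6 promoters (Krt8, Krt20, Sprr1a and Sprr2f), against 14.2% of all promoters. They began 29 bases before the start in Krt20 and Sprr2f and 43 bases before it in Sprr1a. In Krt8 the 2 matches began 3 bases and 1 base before the start and so ran across it. These are matches of letters, and no binding was measured.

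Per kilobase of transcript, Krt8 and Krt7 were the most abundant of the 8 genes in sham kidneys. Krt8, the general type II chain of simple epithelia, was at 71.1, 68.7 and 84.2 CPM in the Ctrl libraries and at 91.5, 95.8 and 84.2 CPM in PT-KO. After I/R it was at 192, 306 and 144 CPM in Ctrl+I/R, against 642, 593.5 and 802 CPM in PT-KO+I/R. Every I/R library was above every sham library, and the PT-KO+I/R libraries did not overlap the Ctrl+I/R ones. The log2 fold change was 1.52 ± 0.26 (SE) for Ctrl+I/R against Ctrl and 2.90 ± 0.13 for PT-KO+I/R against PT-KO. Per kilobase of transcript, Krt8 ranked between 1337 and 1680 among the detected genes in sham libraries and between 104 and 143 in PT-KO+I/R.

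Krt7, a type II chain of ducts, had the smallest fold changes for I/R of the 8 genes. It was at 91.5, 88.8 and 70.3 CPM in Ctrl and at 72.2, 68.1 and 72.6 CPM in PT-KO. The Ctrl+I/R libraries were at 108, 133 and 114 CPM and the PT-KO+I/R libraries at 126, 155 and 171 CPM. The I/R libraries were all above the sham libraries of their genotype, and the I/R groups overlapped each other. Its log2 fold change was 0.51 ± 0.13 for I/R in control kidneys and 1.08 ± 0.12 in knockout kidneys.

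Krt18, the type I partner of Krt8, was at 12.8, 13.98 and 8.14 CPM in Ctrl and at 15.8, 8.39 and 15.6 CPM in PT-KO. It was at 53.7, 86.3 and 32.6 CPM in Ctrl+I/R, against 63.2, 87.6 and 97.5 CPM in PT-KO+I/R. Unlike Krt8, its I/R groups overlapped, with a log2 difference between them of 0.52 ± 0.32. The log2 fold change for I/R was 2.31 ± 0.36 in control and 2.64 ± 0.24 in knockout kidneys.

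Krt19, the smallest keratin, was low in sham kidneys. It was at 2.56, 2.69 and 1.55 CPM in Ctrl and at 3.97, 0.484 and 1.78 CPM in PT-KO, where library 2 was lowest with 9 counts. The Ctrl+I/R libraries were at 7.99, 13.7 and 8.22 CPM and the PT-KO+I/R libraries at 13.8, 25.8 and 28.5 CPM. The I/R groups did not overlap, although the highest Ctrl+I/R library and the lowest PT-KO+I/R library were nearly level. The log2 difference between them was 1.19 ± 0.31.

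Krt20, the type I chain of surface epithelium, had the widest range of the 5 keratins. In sham kidneys it had 8, 14 and 11 counts in the Ctrl libraries and 5, 1 and 0 counts in PT-KO, which is 0.401 to 0.855 CPM and at most 0.315 CPM. After I/R it was at 34.2, 53.9 and 8.91 CPM in Ctrl+I/R. In PT-KO+I/R it was at 984, 886 and 1282 CPM, from 11521 to 19915 counts. The lowest PT-KO+I/R library was thus far above the highest Ctrl+I/R library, and Ctrl+I/R library 4 was well below the other two of its group. The log2 fold change was 5.72 ± 0.74 for I/R in control kidneys, and 5.02 ± 0.59 between the I/R groups, which is 32.4-fold. For I/R in knockout kidneys it was 13.02 ± 0.36, a value that rests on 6 counts in all PT-KO libraries together and ranged from 12.49 to 14.82 when 1 library was left out, the highest without PT-KO library 1.

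Per kilobase, Krt20 ranked 14909 to 20630 among the genes detected in the 5 sham libraries that held it, 2229 to 8590 in Ctrl+I/R and 50 to 82 across PT-KO+I/R. Krt20 was the most abundant of the 5 keratins in all PT-KO+I/R libraries and the least abundant in all sham libraries.

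**Figure D1:**
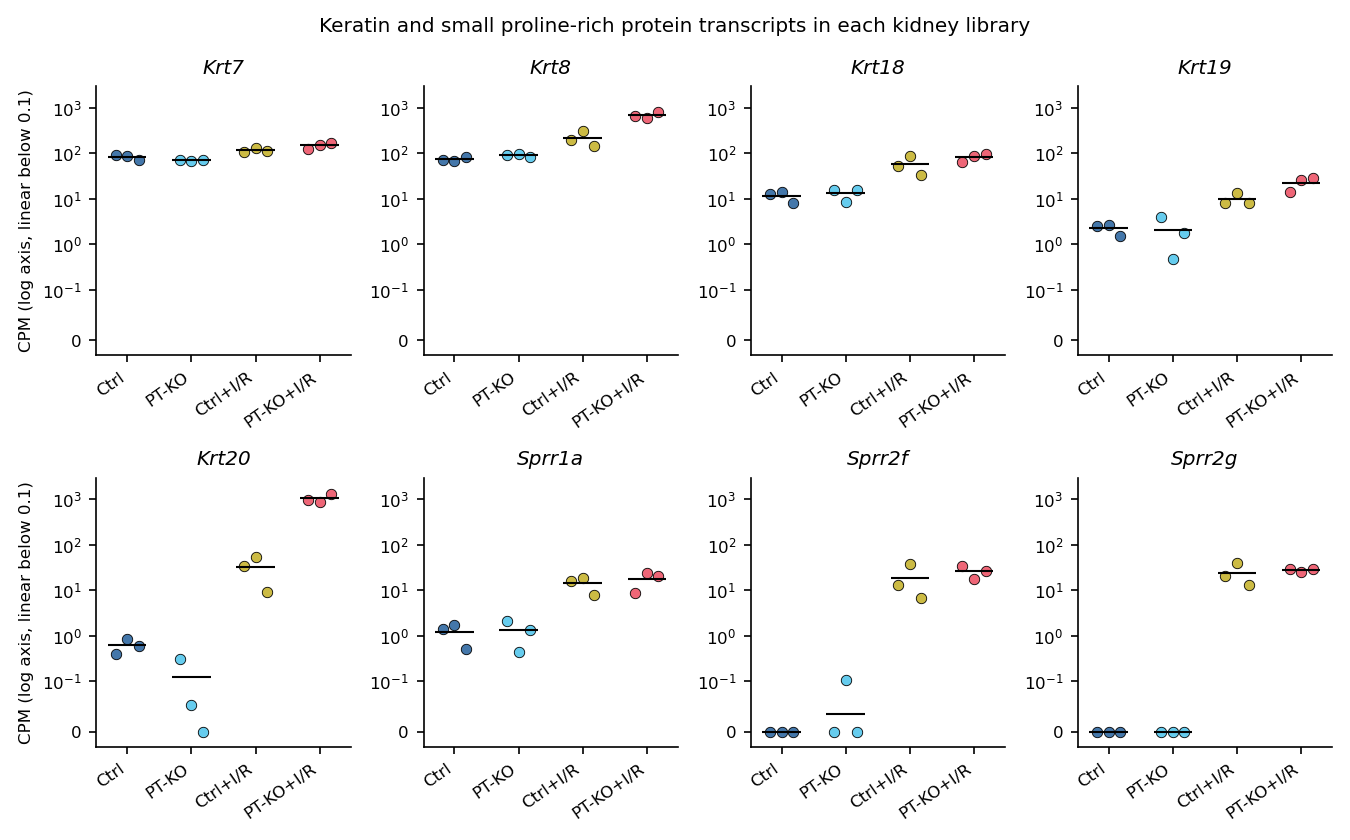
CPM of the 8 genes in each library (points) with the group mean (line), on a common axis that is logarithmic above 0.1 CPM and linear below. The I/R libraries of each genotype lie above their sham libraries for all 8 genes, and PT-KO+I/R separates from Ctrl+I/R for Krt8, Krt19 and Krt20.

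The makeup of the keratin pool was computed from CPM per kilobase of the transcript model, a level that can be compared between genes. In Ctrl, Krt8 made up 55.8% ± 7.14 (SD, n = 3) of the 5 keratins, Krt7 29.8% ± 3.66, Krt18 11.8% ± 2.998, Krt19 2.10% ± 0.55 and Krt20 0.472% ± 0.173. In Ctrl+I/R the share of Krt20 was 3.45% to 9.81% and that of Krt7 11.4% to 20.9%. In PT-KO+I/R, Krt20 was 52.4% to 55.4%, Krt8 34.1% to 35.6% and Krt7 3.34% to 4.31%.

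The ratio of type I to type II keratin transcripts was 0.116 to 0.209 in Ctrl and 0.0942 to 0.213 in PT-KO. It was 0.321 to 0.513 in Ctrl+I/R, against 1.57 to 1.67 in PT-KO+I/R. Type II transcripts were thus in excess in 9 libraries and type I transcripts in the 3 PT-KO+I/R libraries. Without Krt20, the ratio of Krt18 and Krt19 to the type II chains was 0.147 to 0.227 in PT-KO+I/R, against 0.275 to 0.364 in Ctrl+I/R. Krt18 relative to Krt8 was 0.309 to 0.385 in Ctrl+I/R, against 0.134 to 0.201 in PT-KO+I/R, the latter within the sham range of 0.119 to 0.277. The transcript model of Krt7 is 4094 bases long for 1371 coding bases, so the ratios were also formed per coding kilobase. They were then 0.103 on average in Ctrl, 0.324 in Ctrl+I/R and 1.56 across PT-KO+I/R.

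**Figure D2:**
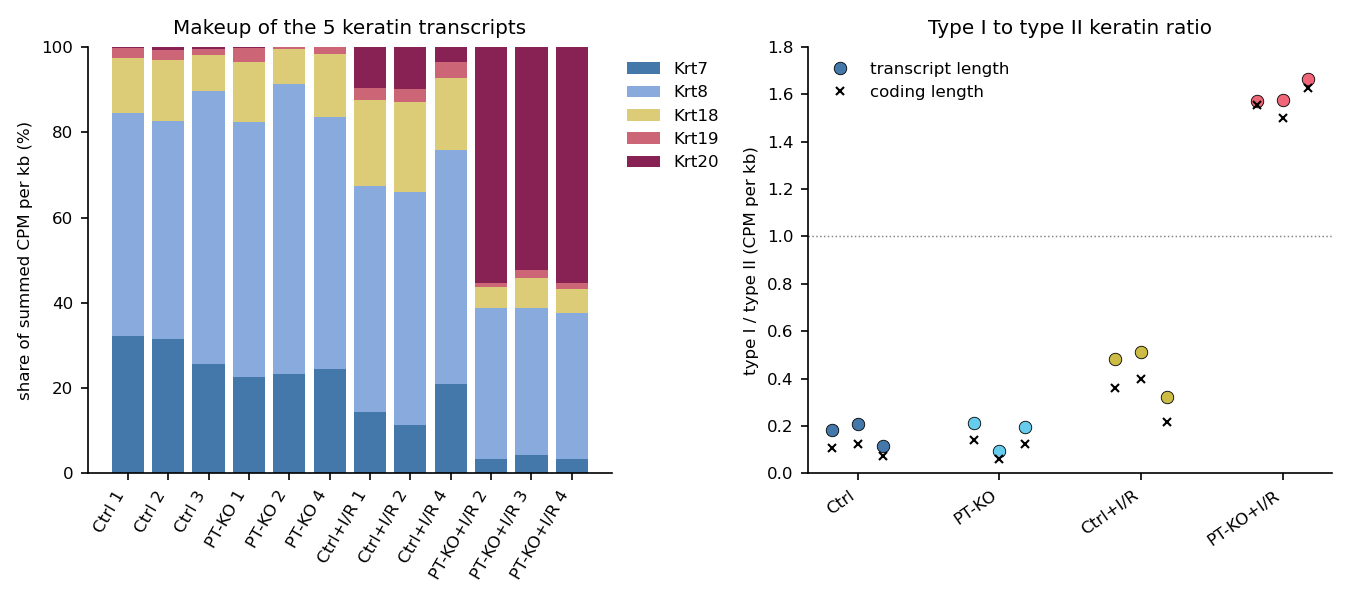
Left, share of each keratin in the summed CPM per kb of the 5 keratins, one bar per library. Right, ratio of type I (Krt18, Krt19, Krt20) to type II (Krt7, Krt8) transcripts per kb of transcript (coloured points) or of coding sequence (crosses), with the dotted line at equality, which the PT-KO+I/R libraries alone exceed.

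Sprr2f and Sprr2g, substrates of cross-linking in stratified epithelia, were at or near 0 counts in sham kidneys. Sprr2f had 0 counts in 5 of the 6 sham libraries and 2 counts in PT-KO library 2, and Sprr2g had 0 in all 6. Sprr2f was at 13.3, 36.8 and 6.76 CPM in Ctrl+I/R, against 33.6, 17.7 and 26.3 CPM in PT-KO+I/R. Sprr2g was at 20.4, 38.9 and 13.0 CPM in Ctrl+I/R, against 29.5, 24.9 and 28.9 CPM in PT-KO+I/R. Every I/R library was thus far above every sham library, and the I/R groups overlapped for both genes.

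Set against a floor of 3 counts in each sham library, Sprr2f was at least 114-fold and Sprr2g at least 145-fold higher in Ctrl+I/R than in Ctrl. In the PT-KO+I/R libraries Sprr2f was at least 145-fold and Sprr2g at least 156-fold higher than in PT-KO. Between the I/R groups, the log2 difference was 0.44 ± 0.53 for Sprr2f and 0.20 ± 0.33 for Sprr2g, both smaller than their SE. When 1 library was left out, the value ranged from 0.035 to 1.32 for Sprr2f and from −0.104 to 0.704 for Sprr2g. The sign for Sprr2g turned with total count scaling and without Ctrl+I/R library 4. The ratio of Sprr2f to Sprr2g counts was 0.519 to 0.945 in Ctrl+I/R, against 0.711 to 1.14 in PT-KO+I/R.

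Sprr1a, a further envelope precursor, was detected in every library. It was at 1.40, 1.71 and 0.498 CPM in Ctrl and at 2.14, 0.430 and 1.35 CPM in PT-KO. It was at 16.1, 18.9 and 7.84 CPM in Ctrl+I/R, against 8.54, 23.9 and 20.3 CPM in PT-KO+I/R. The sham and I/R libraries did not overlap, and the I/R groups did. The log2 fold change for I/R was 3.58 ± 0.48 in control and 3.78 ± 0.49 in knockout kidneys, and the difference between the I/R groups was 0.30 ± 0.41.

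The other 12 genes of the Sprr cluster were nearly silent. Each had at most 24 counts in any library, with Sprr3 at 24 counts in PT-KO library 2 and Sprr2a3 at 15 counts the highest. Sprr2e and Sprr2h, the genes on either side of Sprr2f and Sprr2g, had at most 6 counts and 1 count. The reads in this cluster after I/R therefore came from Sprr2f, Sprr2g and Sprr1a, which are not all next to each other: 108722 bases separate Sprr2g from Sprr1a, with other Sprr genes between them.

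**Figure D3:**
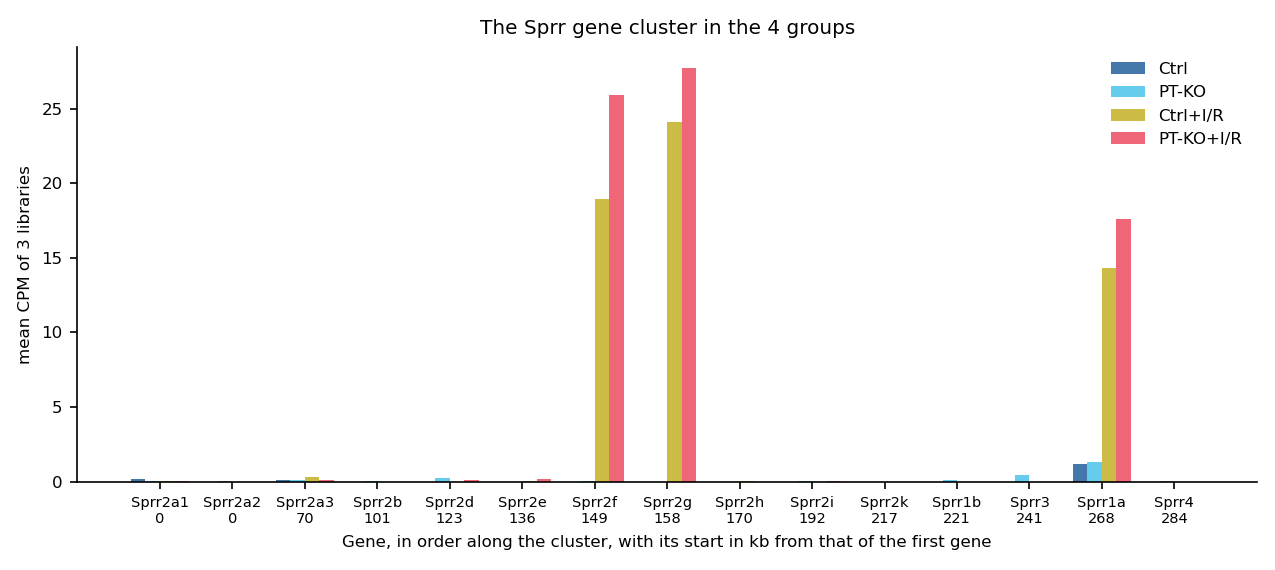
Mean CPM of 3 libraries per group for the 15 Sprr genes in their order along chromosome 3, with the start of each in kb from that of Sprr2a1. Only the bars of Sprr2f, Sprr2g and Sprr1a rise above 1 CPM.

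Placed side by side, all 8 genes were above every sham library of their genotype after I/R, in control kidneys (21.4% of the genes tested were so placed) and in knockout kidneys (35.9%). Between the I/R groups, 3 of the 8, Krt8, Krt19 and Krt20, were higher in all PT-KO+I/R libraries than in all Ctrl+I/R libraries (29.5% of the genes tested). As the genes were selected on these levels, nothing is read from these counts. Sprr2f, Sprr2g, Krt20 and Sprr1a, and in knockout kidneys Krt19 too, did not pass the filter on low counts through their sham libraries and entered through the I/R libraries.

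A gene was called where its edgeR adjusted p was under 0.05. In sham kidneys no gene was called for PT-KO against Ctrl (0% of 15291 genes by edgeR, with 2573 at an unadjusted p under 0.05 and 458 called by DESeq2). Of the 8 genes, 5 passed the filter in this comparison. Their log2 differences were −0.24 ± 0.11 for Krt7, 0.27 ± 0.10 for Krt8, 0.18 ± 0.28 for Krt18, −0.14 ± 0.61 for Krt19 and 0.10 ± 0.61 for Sprr1a. The difference of Krt7 was 0.00 when Ctrl libraries 1 and 2 were left out, and the signs of Krt18, Krt19 and Sprr1a also turned in some of the fits. Krt20 was at fewer counts in every PT-KO than in every Ctrl library, from 6 and 33 counts in total.

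**Figure D4:**
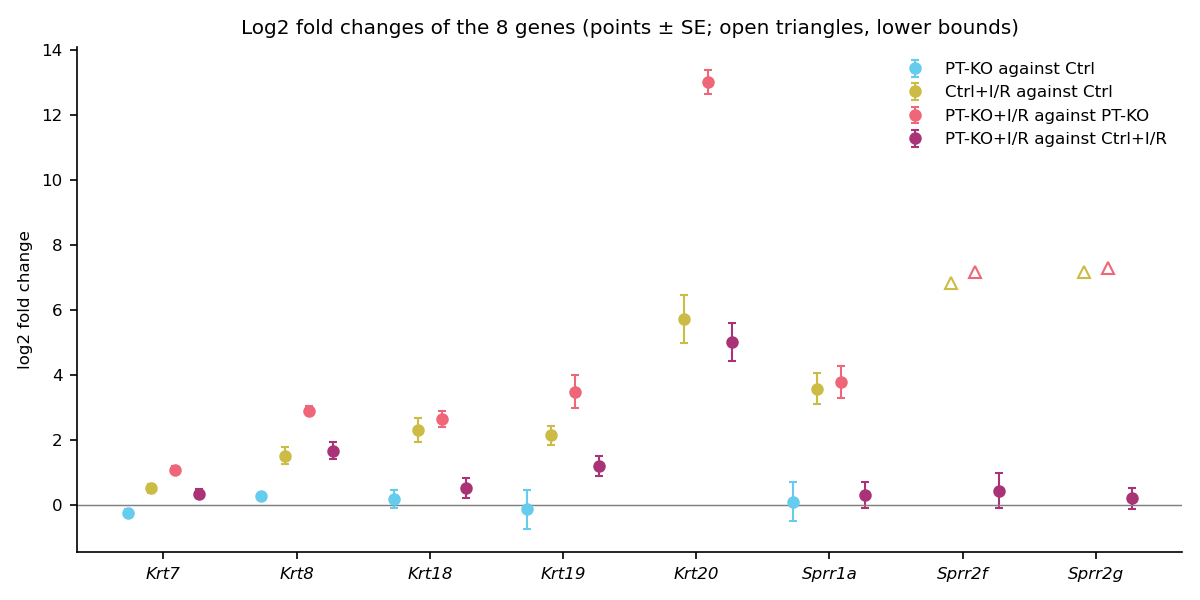
Log2 fold changes (points, with SE as bars) of the 8 genes in the 4 comparisons, and lower bounds from the floor of 3 counts per library (open triangles). The PT-KO against Ctrl points lie near 0, and the largest distance between the I/R responses of the genotypes is that of Krt20.

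Differences in the I/R response between genotypes were fitted as interactions on all 12 libraries. They were 7.32 ± 1.27 on the log2 scale for Krt20, 1.39 ± 0.31 for Krt8, 1.35 ± 0.71 for Krt19, 0.58 ± 0.19 for Krt7, 0.34 ± 0.48 for Krt18 and 0.21 ± 0.80 for Sprr1a. That of Krt20 includes its lower count in sham knockout kidneys and ranged from 6.78 to 9.14 when 1 library was left out, the highest again without PT-KO library 1. That of Krt19 ranged from 0.855 to 2.22 when 1 library was left out. The sign turned for Sprr1a in 5 of its 17 alternatives and for Krt18 in the fit without Ctrl libraries 1 and 2, where it was −0.18.

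The rest of both families was low. The count table held 61 other keratin and Sprr genes, of which 43 were detected and 44 had under 10 counts in every library. For Ctrl+I/R against Ctrl, 7 could be tested and 2 were called higher, when 19.4% of all 15567 genes tested were called. Both are basal keratins of stratified epithelium that passed the count filter through their higher group, so nothing is read from their number. Krt5 had 7, 2 and 2 counts in Ctrl and 80, 48 and 26 in Ctrl+I/R, a log2 fold change of 3.66 ± 0.53. Krt14, its type I partner, had a log2 fold change of 3.55 ± 0.81, which was called in 1 of 6 fits that left out a library. Both were below 4 CPM in every library. They entered the test through the Ctrl+I/R libraries alone, so no p is given. The same holds for other genes given without a p in what follows (Aloxe3, Col17a1, Eppk1, Krt222, Nefm, Plk1 and, against sham, Sox9 and Fosb), which passed the count filter through their higher group. A fit without Ctrl libraries 1 and 2, which carried Xist, leaves Ctrl library 3 as the only Ctrl library, assumed to vary like the other groups. In it the log2 fold changes were 4.44 for Krt5 and 4.04 for Krt14, and neither was called. Tgm1, Pkp2 and Rock2, described in what follows, were not called in that fit either, with log2 fold changes of 1.48, 0.62 and 0.65 that stayed about as large as with all libraries. Dst and Sqstm1 were not called there, at −0.59 and 0.41.

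For PT-KO+I/R against PT-KO, 8 could be tested, 1 rose and 1 fell, when 65.5% of all 15155 genes tested were called. For the interaction, 10 could be tested and Krt5 alone was called, when 30.6% of all 16168 genes were. Krt5 passed the count filter only through groups in which it was high, and its call was lost in 9 of 12 fits without a library. Nothing is therefore read from that call. Krt12, the type I keratin of the corneal epithelium, had 0 counts in all PT-KO libraries and 9, 29 and 42 counts in PT-KO+I/R, at least 8.92-fold more. It was also at least 9.93-fold higher than in Ctrl+I/R. Of 7 tested there it alone was called, when 46.9% of all 15281 genes tested were. Krt12 entered both tests through the PT-KO+I/R libraries alone, so no p is given and nothing is read from its calls. Krt12 is the nearest keratin gene to Krt20, on the same strand with 6143 bases between them, and in these libraries Krt20 had 11521 to 19915 counts. Whether reads from Krt20 transcripts entered its count was not tested. Krt222, an atypical keratin without a full rod domain, had 25 to 39 counts in PT-KO and 3 to 12 in PT-KO+I/R, a log2 difference of −2.10 ± 0.38.

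Krt80, Krt23 and Krt10 were tested in all 5 comparisons and passed the threshold in none. Krt80 averaged 10.4 ± 2.44 CPM (SD, n = 3) in Ctrl, 7.62 ± 1.59 in Ctrl+I/R and, in knockout kidneys after I/R, 10.9 ± 0.98. Its log2 difference between the I/R groups was 0.52 ± 0.19 with an adjusted p of 0.0549. Krt23, the neighbour of Krt20 on its other side at 39823 bases, averaged 3.02 ± 0.40 CPM in PT-KO+I/R against 1.53 ± 0.70 in Ctrl+I/R, with an adjusted p of 0.0652. Krt15, which lies 4881 bases from Krt19, averaged 1.19 CPM in Ctrl+I/R, against 0.132 CPM in PT-KO+I/R, and did not pass the threshold where it could be tested.

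The genes of the cornified envelope, into which Sprr proteins are cross-linked, were followed as a list of 23, most of which were too low to test. For Ctrl+I/R against Ctrl, 4 of 8 tested rose and 1 fell (19.4% of all genes were called). Their median log2 fold change was 0.58, against −0.01 for all genes. Tgm1, the transglutaminase of the keratinocyte membrane, rose by 1.54 ± 0.31 (edgeR adjusted p = 0.0201, past the threshold in 3 of 6 fits without a library). Anxa1, an annexin of the envelope, rose by 1.35 ± 0.16 (adjusted p = 0.0052). Ivl, the early envelope scaffold involucrin, had 0 counts in all Ctrl libraries and 12 to 16 counts in Ctrl+I/R, at least 4.53-fold more. It entered the test through the latter alone, so no p is given.

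For PT-KO+I/R against PT-KO, 5 of 8 tested rose and 3 fell (65.5% of all genes were called). Aloxe3, a lipoxygenase of the epidermal barrier, had 1 to 4 counts in PT-KO and 31 to 86 in PT-KO+I/R, a log2 difference of 4.70 ± 0.48. Against Ctrl+I/R, with 2 to 6 counts, the difference was 3.93 ± 0.42. Scel, the envelope precursor sciellin, fell by 2.20 ± 0.46 (adjusted p = 0.00182). The plakins that start the envelope, periplakin (Ppl) and envoplakin (Evpl), which are known to form heterodimers, moved in opposite directions. Ppl was at 14.6 ± 6.02 CPM (SD, n = 3) in Ctrl+I/R, against 113 ± 13.6 in PT-KO+I/R, with a log2 difference of 2.94 ± 0.26 (adjusted p = 0.000262). Evpl was at 22.0 ± 2.92 CPM in Ctrl+I/R, against 7.08 ± 1.10 in PT-KO+I/R, with a log2 difference of −1.64 ± 0.17 (adjusted p = 0.000423). In sham knockout kidneys Ppl averaged 12.8 ± 5.72 CPM and Evpl 29.8 ± 2.27 CPM. Of the 9 tested between the injured groups, 2 were higher in PT-KO+I/R and 2 lower (46.9% of all genes were called), and none of 7 passed the threshold in sham kidneys.

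Desmosomes and the plakins that anchor keratin filaments were followed as 23 genes. For Ctrl+I/R against Ctrl, 3 of 18 tested rose and 2 fell (19.4% of all genes were called). Plec, which links filaments to hemidesmosomes, rose by 0.96 ± 0.20 (adjusted p = 0.0226) and Pkp2, the plakophilin of simple epithelia, by 0.67 ± 0.14 (adjusted p = 0.0216), while Dst fell by 0.82 ± 0.18 (adjusted p = 0.0233). Each of these 3 was lost in 3 or 4 of the 6 fits without a library. For PT-KO+I/R against PT-KO, 10 of 17 rose and 3 fell, against 65.5% of all genes called in either direction. Pkp2 rose by 1.59 ± 0.12 (adjusted p = 1.51e-06) and Plec by 1.44 ± 0.11 (adjusted p = 2.39e-06). Eppk1 had 8 to 14 counts in PT-KO and 17 to 33 in PT-KO+I/R, a log2 difference of 1.36 ± 0.37.

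When the injured groups were compared, 3 of 18 tested were higher in PT-KO+I/R and 4 lower (46.9% of all genes were called). Perp, a p53 target of desmosomes, was at 70.1 ± 5.57 CPM in Ctrl+I/R, against 174 ± 18.6 in PT-KO+I/R, a log2 difference of 1.31 ± 0.12 (adjusted p = 0.00026). Pkp2 was higher by 1.02 ± 0.16 (adjusted p = 0.00181). Col17a1, a hemidesmosomal collagen, had 13 to 40 counts in the Ctrl+I/R libraries and 5 to 7 in PT-KO+I/R, a log2 difference of −1.92 ± 0.48. None of 17 passed the threshold in sham kidneys.

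Among 15 intermediate filament genes other than keratins, 5 of 9 tested rose in control kidneys after I/R and none fell (19.4% of all genes were called). Vim, the filament of mesenchymal and dedifferentiated cells, rose by 1.61 ± 0.25 (adjusted p = 0.0111), and the lamins Lmnb1 and Lmnb2 rose by 1.56 ± 0.16 (adjusted p = 0.00293) and 0.97 ± 0.14 (adjusted p = 0.00968). In knockout kidneys 6 of 7 rose and 1 fell (65.5% of all genes were called). Lmna rose by 1.41 ± 0.10 (adjusted p = 1.5e-06), Vim rose by 0.91 ± 0.14 (adjusted p = 0.000222) and Synm, a partner of vimentin and desmin, fell by 1.02 ± 0.35 (adjusted p = 0.0261, lost in 3 of 6 fits without a library).

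After I/R, none of 9 was higher in injured knockout than in injured control kidneys and 5 were lower, when 46.9% of all genes were called in either direction. Lmnb1 was lower by 1.12 ± 0.13 on the log2 scale (adjusted p = 0.000629). Nefm, at 4 to 8 counts in PT-KO+I/R, had a log2 difference of −1.52 ± 0.51. Nefl had 12 to 15 counts in the Ctrl+I/R libraries and at most 1 in PT-KO+I/R, and entered the test through the former alone. None of 9 passed the threshold in sham kidneys.

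Transcription factors known to act on keratin and Sprr promoters formed a list of 28. After I/R, 12 of 27 tested rose in control kidneys and none fell, and in knockout kidneys 21 of 27 rose and 1 fell (19.4% and 65.5% of all genes were called). Fosl1, an AP-1 subunit, was at 0.632 to 3.50 CPM in Ctrl+I/R, against 22.7 to 46.1 CPM in PT-KO+I/R. It had at most 2 counts in a Ctrl library and 0 in the PT-KO libraries, and it was at least 13.7-fold and at least 205-fold higher after I/R. As it entered these tests through the I/R libraries alone, no p is given for them. Its log2 difference between the I/R groups was 3.96 ± 0.49 (adjusted p = 0.000738).

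Sox9, a factor of regenerating tubule cells, had 5 to 21 counts in Ctrl, with a log2 difference of 4.30 ± 0.69 after I/R. In knockout kidneys it had 2 to 8 counts in PT-KO, with a log2 difference of 7.34 ± 0.30 after I/R. Atf3, a stress factor that binds AP-1 and CRE elements, rose by 3.34 ± 0.55 in control kidneys (adjusted p = 0.0128, lost in 2 of 6). Fosb, another AP-1 subunit, had 5 to 7 counts in PT-KO and was at 0.939, 12.4 and 3.54 CPM in PT-KO+I/R. Its log2 difference was 3.997 ± 0.84, or 2.66 without PT-KO+I/R library 3. Of the 27, 12 were higher in injured knockout than in injured control kidneys and 1 was lower (46.9% of all genes were called). Sox9 was higher by 1.94 ± 0.40 (adjusted p = 0.00584) and Fosb by 2.20 ± 0.78 (adjusted p = 0.0486, lost in 5 of 6 fits without a library and with total count scaling). The value of Fosb went down to 0.875 when 1 library was left out. In sham kidneys none of 24 passed the threshold.

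Kinases, chaperones and turnover factors that act on keratin filaments formed a list of 20. In control kidneys 6 of 20 rose after I/R and none fell, and in knockout kidneys 8 rose and 3 fell (19.4% and 65.5% of all genes were called). Hspb1, a small heat shock protein that binds keratin filaments, rose by 2.22 ± 0.52 in control (adjusted p = 0.0296, lost in 5 of 6 fits without a library) and by 4.26 ± 0.15 in knockout kidneys (adjusted p = 3.59e-08). Rock2, a kinase of the cytoskeleton, rose by 0.66 ± 0.16 in control (adjusted p = 0.0311, lost in 4 of 6) and by 1.54 ± 0.09 in knockout kidneys (adjusted p = 5.04e-07). Sqstm1, the autophagy receptor of inclusion bodies that also hold keratins, rose by 0.66 ± 0.19 in control kidneys (adjusted p = 0.0482, lost in 4 of 6), and Akt1 by 1.20 ± 0.10 in knockout kidneys (adjusted p = 3.45e-06).

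With the injured groups compared, 9 of 20 were higher in PT-KO+I/R and 3 lower (46.9% of all genes were called). Rock2 was higher by 1.01 ± 0.16 (adjusted p = 0.00216) and Hspb1 by 1.37 ± 0.44 (adjusted p = 0.0339, lost in 4 of 6 and with total count scaling). Plk1, a mitotic kinase, had 10 to 17 counts in PT-KO+I/R, against 34 to 115 in Ctrl+I/R, a log2 difference of −2.10 ± 0.46. None of 20 passed the threshold in sham kidneys.

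**Figure D5:**
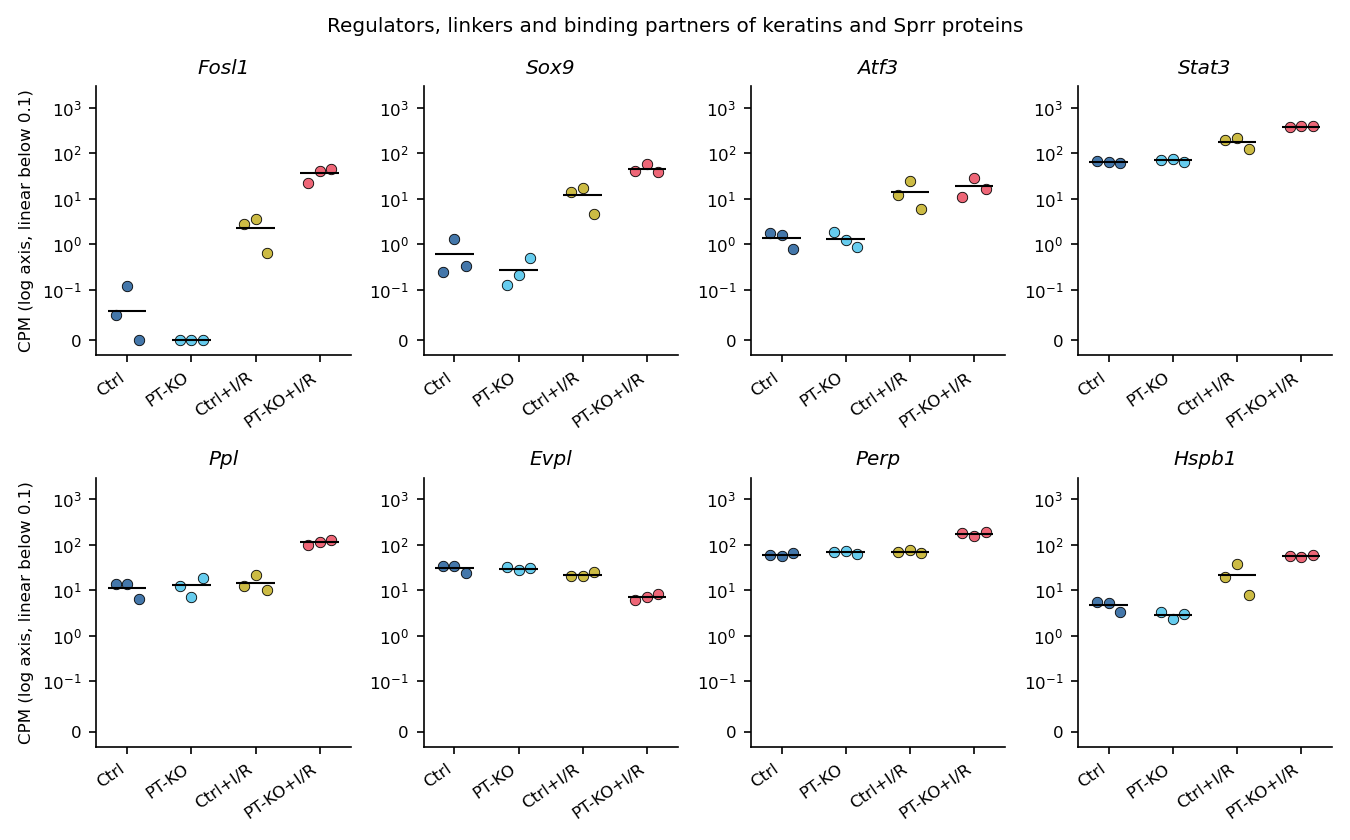
CPM of 8 genes from the lists of regulators, envelope proteins, desmosome genes and filament chaperones in each library (points) with the group mean (line), on an axis that is logarithmic above 0.1 CPM and linear below. Fosl1, Sox9, Ppl and Perp are highest and Evpl lowest in the PT-KO+I/R libraries.

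Genes known from injured proximal tubules served as a reference for the extent of injury. Of 15, 13 rose in control and 14 in knockout kidneys after I/R (19.4% and 65.5% of all genes were called). Havcr1, which encodes the injury marker KIM-1, was at 785, 2105 and 381 CPM in Ctrl+I/R, against 2257, 3929 and 3226 CPM in PT-KO+I/R, a log2 difference of 1.53 ± 0.55 (adjusted p = 0.0494, lost in 5 of 6 fits without a library and with DESeq2, whose adjusted p was 0.0669). Lcn2, which encodes NGAL, differed by 2.43 ± 0.36 (adjusted p = 0.00147). Ctrl+I/R library 4 was lowest and library 2 highest of its group for Havcr1 and Lcn2, as for Krt8, Krt18, Krt20, Sprr1a, Sprr2f and Sprr2g. Spp1 rose by 3.60 ± 0.48 in control kidneys (adjusted p = 0.00752) and Tnfrsf12a by 5.09 ± 0.17 in knockout kidneys (adjusted p = 3.22e-08). Of the 15, 5 were higher in injured knockout than in injured control kidneys and 2 lower (46.9% of all genes were called), among them Tnfrsf12a, higher by 1.57 ± 0.36 (adjusted p = 0.00877), and Plaur, higher by 1.74 ± 0.45 (adjusted p = 0.0151, lost in 2 of 6 fits without a library).

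Markers of other cells that could hold keratin or Sprr transcripts were summed. In bulk tissue, fewer cells of a type and less RNA per cell cannot be told apart. The 10 proximal tubule markers summed to 7242 to 14130 CPM in Ctrl+I/R, against 7434 to 8429 CPM in PT-KO+I/R, with 3 and 10 of 10 lower than in the sham group of the genotype. The 7 markers of thick ascending limb and distal tubule fell in 3 and 7 of 7. Of all genes, 19.4% and 65.5% were called in these comparisons, so the counts in the genotypes are not set against each other. The 10 collecting duct markers, whose cells are known to hold Krt7, Krt18 and Krt19, summed to 473 to 628 CPM in sham kidneys, 217 to 478 in Ctrl+I/R and 229.5 to 275 across PT-KO+I/R, with none called higher in these comparisons.

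The 10 urothelial markers, from cells known to hold Krt7, Krt19 and Krt20, summed to 2.55 to 9.98 CPM in Ctrl, 22.7 to 29.5 in PT-KO, 6.51 to 11.1 in Ctrl+I/R and 2.99 to 10.5 across PT-KO+I/R. In the PT-KO+I/R libraries the uroplakins Upk2 and Upk3a had at most 4 counts and 1 count, whereas Upk1a had 13 to 32 and Upk1b 2 to 31. Psca had 4 to 28 counts and Krt5 9 to 80 in these libraries, in which Krt20 was at 11521 counts or more. Krt13 was at 0 in Ctrl+I/R. Of the urothelial list, 2 of 7 tested, Krt5 and Krt14, were called higher in control kidneys (19.4% of all genes were called). Both entered that test through the Ctrl+I/R libraries alone. In knockout kidneys none of 5 tested was called higher and 1 was called lower (65.5% of all genes were called). The 12 markers of stratified epidermis summed to 8.53 to 23.7 CPM in all libraries, and Krt1 had at most 3 counts, Dsc3 3 and Krtdap 20, all 3 at their highest in PT-KO. These 3 were at 0 in the Ctrl and Ctrl+I/R libraries. Of this list, 2 of 5 tested, again Krt5 and Krt14, were called higher in control kidneys, and 1 of 5 in knockout kidneys (19.4% and 65.5% of all genes were called).

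The 8 mesothelial markers summed to 166 to 227 CPM in sham kidneys and 55.7 to 109 CPM after I/R, with none higher in either genotype, and Muc16 had at most 1 count. The 6 podocyte markers summed to 489 to 660 CPM in Ctrl, 402 to 519 in PT-KO, 382 to 423 in Ctrl+I/R and 376 to 428 across PT-KO+I/R. After I/R none was called higher and 3 of 6 were called lower in each genotype (19.4% and 65.5% of all genes were called). The 7 markers of the parietal epithelium of the glomerulus, a layer known to hold Krt8 and Krt18, summed to 748 to 834 CPM in sham kidneys, 864 to 1015 in Ctrl+I/R and 1514 to 2359 across PT-KO+I/R. Most of that difference was Akap12, which had a mean of 1433 CPM in PT-KO+I/R. The 9 leukocyte markers summed to 18.3 to 24.0 CPM in sham kidneys and 48.7 to 95.2 after I/R, and 6 of 8 tested were called higher in control kidneys (19.4% of all genes were called). In knockout kidneys 4 of 6 were called higher and 2 lower (65.5% of all genes were called). The part of these cells in the keratin levels was not tested.

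Over all 12 libraries, the 5 genes most like Krt8, Krt20 and Sprr2f were found by Pearson's r of log2 CPM among the 12367 genes that averaged 50 counts or more per library. The groups lie apart, so that these values reflect the order of the groups and carry no test. Krt8 was most like Cct3 (r = 0.997), Klf16, Ddx21, Eif4a1 and Vat1. Krt20 was most like Tubb2a (r = 0.994), Slc39a6, Cstb, Cdkn1a and Gars. Of these, the cell cycle inhibitor Cdkn1a was at 5.49 CPM in Ctrl, 26.9 in Ctrl+I/R and, in knockout kidneys after I/R, 229.5 on average. Sprr2f was most like Sprr2g (r = 0.994), Fblim1, Calu, Tagln2 and Nrg1. Fblim1, an adaptor of actin and integrin sites, averaged 5.53 CPM in Ctrl, 20.2 in Ctrl+I/R and, in knockout kidneys after I/R, 27.0.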

How the data were processed

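RNA-seq counts were analysed for 12 mouse kidney libraries in 4 groups of 3. The authors deposited 1 table of read counts per gene. Per the submitters' processing notes, reads were aligned with HISAT2 2.0.4 to mm10. The counting program, annotation and strand setting are not given in the sources used here. Symbols were found for 55141 of 55487 identifiers.

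Each comparison was fitted to the counts of its 6 libraries, and the interaction of genotype and I/R to all 12, with edgeR 4.0.16 in R 4.3.3 (filterByExpr, TMM, quasi-likelihood test, Benjamini-Hochberg adjustment over all genes tested). Genes with an adjusted p under 0.05 were called. Summaries used Python 3.11.15 and pandas 2.3.3. The fits were tested on simulated counts. The 8 genes and the gene lists were chosen with earlier results of these data known, so no p is given for the 8 genes. Of each list other than the cell markers, the 3 called genes of the largest absolute log2 fold change per comparison were named, with other keratin or Sprr genes where called, Gfer, Havcr1, Lcn2 and the 5 genes most like Krt8, Krt19, Krt20 and Sprr2f. Those of Krt19 are not reported here. A group with at most 3 counts in each of its libraries was taken at that floor, and only a lower bound of the fold was given. Alternatives were DESeq2 1.42.0, total count scaling, other count filters, 1 fit to all libraries, the replicate block, and leaving out libraries. Ratios per coding length were added after seeing the data.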

Additional observations from a re-analysis of the deposited data

Results flagged for a closer look

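The I/R response differed between genotypes, by the interaction test of edgeR on all 12 libraries, for 18 genes outside the 8 that were named by the rules above. Nefl was called too and is not counted among them, as it had at most 1 count in each PT-KO+I/R library and no log2 value is given. In this test 30.6% of all 16168 genes were called. The rules by which genes were named took up called genes, so nothing is read from the number of the 18. Each value is the log2 fold change for I/R in knockout kidneys less that in control kidneys, with its SE and adjusted p. No p is given for Krt5 and Sox9, which passed the count filter only through groups in which they were high.

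Among genes that bind or assemble with keratin filaments, Ppl differed by 2.76 ± 0.51 (adjusted p = 0.0022) and Evpl, its partner in the cornified envelope, by −1.59 ± 0.23 (adjusted p = 0.000567). Ppl had a log2 fold change of 0.39 in control and 3.14 in knockout kidneys, and Evpl of −0.47 and −2.07. Tchh, trichohyalin of the hair follicle, differed by −0.69 ± 0.20 (adjusted p = 0.0226). Perp differed by 1.14 ± 0.15 (adjusted p = 0.000298), the desmosomal cadherin Dsg2 by 1.12 ± 0.35 (adjusted p = 0.0292) and the hemidesmosomal integrin Itga6 by 1.08 ± 0.31 (adjusted p = 0.0207).

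Among filament genes, Krt5 differed by −2.88 ± 0.996, with a log2 fold change of 3.66 in control and 0.76 in knockout kidneys. In sham kidneys Krt5 had 2 to 7 counts in Ctrl and 7 to 39 in PT-KO, where libraries 1 and 2 also held the squamous genes described above, and the call was lost in 9 of 12 fits without a library. Synm differed by −1.53 ± 0.50 (adjusted p = 0.0355) and Lmnb1 by −0.80 ± 0.22 (adjusted p = 0.0191).

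Of the regulators, Sox9 differed by 3.03 ± 1.01, from 2 to 21 counts in the sham libraries. Klf6 differed by 1.52 ± 0.51 (adjusted p = 0.0406) and Stat3 by 1.03 ± 0.23 (adjusted p = 0.00548). Hspb1 differed by 2.06 ± 0.61 (adjusted p = 0.0239), Rock2 by 0.90 ± 0.19 (adjusted p = 0.00486) and Akt1 by 0.64 ± 0.17 (adjusted p = 0.0122). Of the injury genes, Havcr1 differed by 2.55 ± 0.84 (adjusted p = 0.0368), Lcn2 by 2.08 ± 0.65 (adjusted p = 0.0299) and Plaur by 1.71 ± 0.60 (adjusted p = 0.0495). The calls of Dsg2, Sox9, Klf6, Havcr1, Lcn2, Hspb1, Synm and Plaur were each lost in 5 to 10 of the 12 fits without a library, those of Tchh and Itga6 in 3, and those of Ppl, Evpl, Perp, Lmnb1, Stat3, Rock2 and Akt1 in none. In a fit without Ctrl libraries 1 and 2, where Ctrl is library 3 alone and is assumed to vary like the other groups, Evpl, Perp, Rock2, Lmnb1 and Synm were past the threshold and the other 13 were not. Several of the latter had values near those above in that fit, such as 0.92 for Stat3 and 0.59 for Akt1, whereas Dsg2 was at 0.24 and Itga6 at 0.54. Those of Dsg2, Klf6 and Plaur were also lost with total count scaling.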

How the results depend on the processing

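The signs of the 6 genes that could be given a fold change for I/R in either genotype turned in none of the alternatives run, and those that turned in other comparisons are given above. The median log2 fold change of the 8 genes was 2.94 for Ctrl+I/R against Ctrl and 3.63 for PT-KO+I/R against PT-KO. With at least 10 counts required in every library it was 1.83 and 2.61 over those that remained, and 0 other keratin or Sprr genes were called in these comparisons, between the I/R groups and for the interaction. With no filter, 4, 9, 2, 5 and 7 other keratin and Sprr genes were called for I/R in control, I/R in knockout, the I/R groups, sham and the interaction, and 388 genes were called in sham kidneys. DESeq2 called 458 genes for PT-KO against Ctrl and 6 other keratin and Sprr genes for the interaction. Total count scaling shifted the median of all genes by −0.205 between the I/R groups, where 2 other keratin and Sprr genes were then called, and gave 1 called gene in sham kidneys. With 1 fit to all 12 libraries, 4938 genes and 4 others of the families were called for Ctrl+I/R against Ctrl, and 4 between the I/R groups. Without Ctrl libraries 1 and 2, which carried Xist, Ctrl is library 3 alone, assumed to vary like the other groups. In that fit 1219 genes and 0 others of the families were called for Ctrl+I/R against Ctrl, the median was 3.804, Dsg2 turned from −0.08 to 0.78 (adjusted p = 0.0452), and the interaction called 2539 genes. These causes were not tested. Leaving out a library gave 379 (without Ctrl 1) to 4061 genes for Ctrl+I/R against Ctrl, with 413 without Ctrl 2, 833 without Ctrl+I/R 1 and 1635 without Ctrl+I/R 2, and 1 to 3 other keratin and Sprr genes. It gave a median of 3.16 to 4.34 and 2 to 7 others for PT-KO+I/R against PT-KO. Between the I/R groups it gave 0.27 to 1.12 (without Ctrl+I/R 2) and 1 to 5 others, and for the interaction 0 to 3 others. In sham kidneys it gave 0 to 1930 genes (without Ctrl 3) and a median from −0.35 to 0.34, against 0.10. The labels number replicates alike, but of 12 same-numbered pairs 1 had a correlation of deviations over 0.1 (median −0.0217), so the numbers were not taken to pair samples. The replicate block gave a median of 4.16 for PT-KO+I/R against PT-KO, 1683 genes and 0 others between the I/R groups, 1378 genes with a median of −0.37 in sham kidneys, and 3215 genes for the interaction. Genes at a few counts in sham kidneys are limited by depth.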
